A study of Homo sapiens with 12 samples.

Results

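The subunits described here are the nuclear-encoded proteins of the 5 respiratory chain complexes, taken as a list of 58 gene symbols (older ATP5 symbols for complex V) from a table of 57773 rows. A row of exactly that name existed for 55 of them, and all 55 passed the filter on low values, against 18648 rows in all. They are 34 subunits of complex I, 3 of complex II, 7 of complex III, 5 of complex IV and 6 of complex V. NDUFA7, NDUFB8 and SDHD stand in the table only as numbered rows, which are described separately. The RNA came from A498, a human kidney carcinoma line, in 4 groups of 3 replicates. One group received control siRNA, one an siRNA against ELOVL2 (siELOVL2), one an siRNA against ELOVL5 (siELOVL5), and one both (the double knockdown). Both targets encode elongases, which extend long-chain polyunsaturated fatty acids, and an siRNA is a short duplex that lowers the transcript it matches. All libraries came from this 1 cell line and carried the same batch label. The labels used here name neither the siRNA sequences nor the dose nor the time of harvest, and they do not say whether the replicates were separate cultures, so p-values measure the spread between these libraries.

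The respiratory chain sits in the inner mitochondrial membrane. Complex I takes electrons from NADH and complex II from succinate, ubiquinone carries them to complex III, cytochrome c carries them to complex IV, and complex IV passes them to oxygen. Complexes I, III and IV pump protons, and complex V, the ATP synthase, uses the returning protons to make ATP. Most subunits are encoded in the nucleus and imported, while a core set is transcribed from mitochondrial DNA. Complex II is the exception, with all of its subunits encoded in the nucleus. Kidney epithelium is rich in mitochondria, and kidney carcinomas are known for altered respiratory metabolism.

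The promoters of 4 of the subunits described below are shown so that the motifs counted further on can be seen. Each line gives the 250 bases before the RefSeq start on GRCh38.p14, read 5′ to 3′ on the gene's strand. They lie at chr16:23596317-23596566 on the minus strand (NDUFAB1), chr5:140647631-140647880 on the minus strand (NDUFA2), chr11:112086623-112086872 on the plus strand (SDHD) and chr5:218070-218319 on the plus strand (SDHA). Capitals mark matches, on either strand, to the motifs of NRF1 (GCGCA, then any base, then GCGC), ETS factors (CCGGAAG), YY1 (AAGATGGCG) and SP1 (GGGCGG).
NDUFAB1: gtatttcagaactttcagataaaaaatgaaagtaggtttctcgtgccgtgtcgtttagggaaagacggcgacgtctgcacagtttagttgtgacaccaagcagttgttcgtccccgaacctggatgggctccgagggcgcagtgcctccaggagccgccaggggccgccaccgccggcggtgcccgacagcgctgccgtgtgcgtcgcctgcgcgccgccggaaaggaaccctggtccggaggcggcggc
NDUFA2: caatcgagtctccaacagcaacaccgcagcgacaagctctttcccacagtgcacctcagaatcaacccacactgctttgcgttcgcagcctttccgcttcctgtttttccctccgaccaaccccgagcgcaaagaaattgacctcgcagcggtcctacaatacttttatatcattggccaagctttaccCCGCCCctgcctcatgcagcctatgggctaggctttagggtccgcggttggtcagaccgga
SDHD: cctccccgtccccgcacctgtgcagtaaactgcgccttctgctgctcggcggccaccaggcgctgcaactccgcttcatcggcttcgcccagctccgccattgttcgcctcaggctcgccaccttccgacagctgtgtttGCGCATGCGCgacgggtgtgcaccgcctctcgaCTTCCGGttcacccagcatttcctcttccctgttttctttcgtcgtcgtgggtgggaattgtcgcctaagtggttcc
SDHA: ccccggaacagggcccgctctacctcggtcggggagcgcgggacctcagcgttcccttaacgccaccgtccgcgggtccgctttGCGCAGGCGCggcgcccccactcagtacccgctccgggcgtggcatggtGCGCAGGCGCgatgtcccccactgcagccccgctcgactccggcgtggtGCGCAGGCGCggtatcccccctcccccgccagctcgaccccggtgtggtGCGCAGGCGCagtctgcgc
NDUFAB1 held no match, NDUFA2 held 1 to SP1, SDHD held 1 to NRF1 and 1 to ETS, and SDHA held 4 to NRF1. These 4 do not stand for the list, in which 11 of 48 genes with a promoter held an NRF1 match.

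Values are read counts after the authors' normalization, which gave every library the same distribution and a total of 8.525 M. They are listed below for replicates 1, 2 and 3 in that order. Estimated depths before that step ran from 6.7 M reads (double knockdown, replicate 1) to 10.7 M (siELOVL5, replicate 2). Both targets were lowered in the groups labelled for them. ELOVL2 read 299, 299 and 211 in the controls, 27.0, 30.1 and 18.4 in the siELOVL2 libraries, 286, 235 and 165 in the siELOVL5 libraries and 25.4, 26.5 and 19.9 in the double knockdown. ELOVL5 read 1939, 1954 and 2038 in the controls, 1791, 1994 and 2328 in the siELOVL2 libraries, 147, 141 and 156 in the siELOVL5 libraries and 177, 172 and 187 in the double knockdown. The fitted changes of ELOVL2 were -3.38 with siELOVL2 and -3.43 in the double knockdown (limma adjusted p = 1.61e-05 and 8.97e-06), and those of ELOVL5 were -3.73 with siELOVL5 and -3.46 in the double knockdown (limma adjusted p = 1.36e-10 and 3.53e-10). Changes throughout are log2 fold changes on the log2(value + 1) scale, and a gene is called when limma's p, adjusted by Benjamini-Hochberg over all 18648 rows tested, is under 0.05. The 8 markers of the kidney line summed to 32285 to 35456 in controls and 26199 to 32977 with siELOVL5. With siELOVL2 they summed to 27814 to 28517 and in the double knockdown to 26111 to 29001, below every control. VIM, the largest, and CDH2, 2 of the 8, lay below all controls in both groups (10.4% and 11.4% of all rows), and 0 lay above (12% and 13.4%). KRT8 and KRT18 overlapped with control. The adhesion gene CDH2 was called, at -0.73 with siELOVL2 and -0.76 in the double knockdown (limma adjusted p = 4.19e-04 and 1.77e-04). The part of these sums in the results was not tested. CD3E was at 0 throughout and PTPRC did not exceed 2.83. The 3 endothelial markers with a row summed to at most 7.2. Of the leukocyte markers, CD68 carried nearly the whole sum, and of the fibroblast and pericyte markers COL1A2 and DCN were at 0 in 11 of 12 libraries each. The latter list, mostly COL1A1, summed to 475 to 537 in controls, 363 to 459 with siELOVL2, 490 to 538 with siELOVL5 and 383 to 425 in the double knockdown, so it was lower in the groups where most subunits lay above control, and its part in the results was not tested. In bulk RNA, fewer cells of a type and less RNA per cell cannot be told apart.

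siELOVL5 replicate 3 stood apart from the other libraries for these subunits. It was the lowest of the 12 libraries for 37 of the 55 subunits, while it was the lowest for 27.8% of the 9298 tested rows within the subunits' range of mean level. It was the highest for 0 subunits and for 19.2% of those rows. Both shares of rows were the largest of any library, so it also stood apart outside the list of subunits. The median difference of the 55 subunits from the control mean was -0.19 in that library, against -0.05 and -0.02 in siELOVL5 replicates 1 and 2. The 13 mitochondrially encoded subunits lay at -0.59 and the 74 mitochondrial ribosomal protein genes at -0.24 in it. siELOVL2 replicate 3 and double-knockdown replicate 3 were each the highest library for 16 subunits, where they were the highest for 7.93% and 16.2% of the 9298 rows. Counts are therefore also given without siELOVL5 replicate 3, a choice made after seeing the values.

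**Figure D1:**
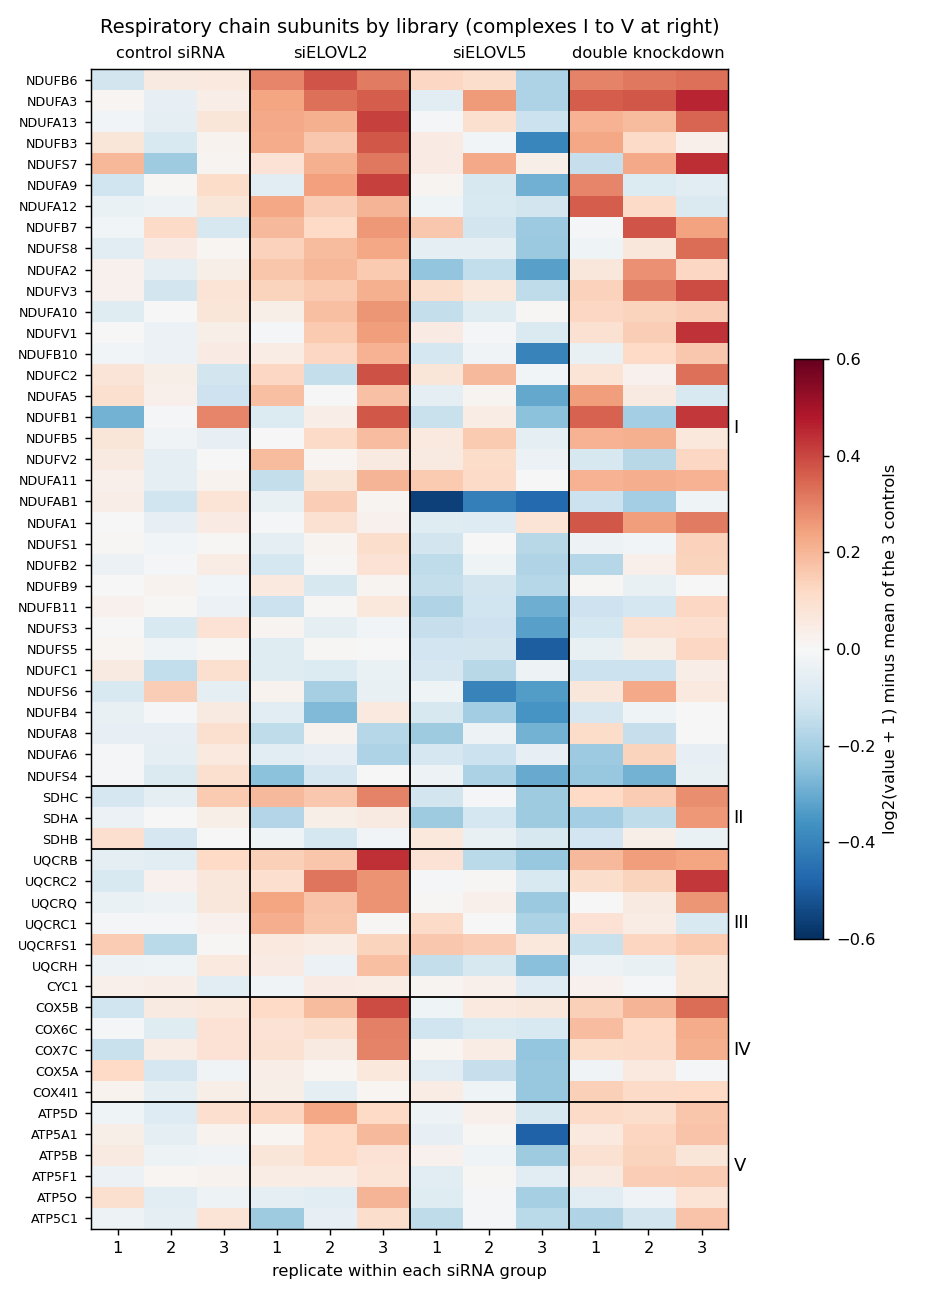
Heat map of the 55 subunits (rows, grouped by complex, sorted within a complex by the siELOVL2 change) in the 12 libraries (columns); colour gives log2(value + 1) minus the mean of the 3 controls, clipped at 0.6 either way. The column of siELOVL5 replicate 3 is mostly blue, NDUFAB1 is blue in all 3 siELOVL5 libraries, and the siELOVL2 and double-knockdown columns are mostly red.

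With siELOVL2, subunit transcripts lay slightly above control: 40 of 55 were above and 15 below, with a median change of 0.10 and a range of -0.11 to 0.33. The median over all 18648 rows was 0.02, and 52.9% of them lay above control. No subunit was called in either direction, where 1.36% of all rows were called, 0.547% higher and 0.815% lower. The lowest adjusted p was that of NDUFB6, 0.124 by limma. Without adjustment, 9 subunits had p under 0.05, all higher. Of all 18648 rows, 1403 did so upwards and 13.7% in either direction. All 3 siELOVL2 libraries lay above all 3 controls for 17 subunits (12% of all rows) and below them for 0 (10.4%). Of the 9298 rows within the subunits' range of mean level, 1633 separated upwards and 1363 downwards. Of the same rows, 91 were called higher and 137 lower. Without siELOVL5 replicate 3, which enters this comparison only through the spread and the filter, NDUFB6 was called higher (2.12% of all rows). The median was 0.06, with 35 subunits above control, when siELOVL2 replicate 3 was left out.

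With siELOVL5, the subunits lay below control: 10 of 55 were above and 45 below, with a median of -0.09 (0.00 over all rows) and a range of -0.48 to 0.12. Of all rows, 48.7% lay above control. No subunit was called, and 0.139% of all rows were, 0.0161% higher and 0.123% lower. NDUFAB1 came closest, at -0.48 (limma adjusted p = 0.0770). It was called lower when replicate numbers were fitted as a block (limma adjusted p = 0.0444). Without adjustment, 5 subunits had p under 0.05, all lower and all of complex I. Of all 18648 rows, 899 did so downwards and 9.56% in either direction. All 3 siELOVL5 libraries lay below all 3 controls for 10 subunits (7.04% of all rows) and above them for 0 (6.07%). Of the 9298 rows within the subunits' range of mean level, 885 separated downwards and 749 upwards. Of the same rows, 23 were called lower and 3 higher. The shift was smaller without 1 library. When siELOVL5 replicate 3 was left out, 33 subunits were below control and 22 above, with a median of -0.04. In that setting, with 2 siELOVL5 libraries, 12 subunits were separated from control downwards (2051 of 18447 rows) and 3 upwards (2170 rows), and 0 were called by limma.

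In the double knockdown, 40 subunits lay above control and 15 below, with a median of 0.12 (0.02 over all rows) and a range of -0.19 to 0.40. Of all rows, 52.4% lay above control. No subunit was called, and 4.42% of all rows were, 2.15% higher and 2.27% lower. NDUFA1 was next to the threshold at 0.31 (limma adjusted p = 0.0549). With replicate numbers fitted as a block, NDUFA1 and COX5B were called higher (limma adjusted p = 0.0319 and 0.0373). Without adjustment, 10 subunits had p under 0.05, all higher. Of all 18648 rows, 1838 did so upwards and 18.8% in either direction. All 3 double-knockdown libraries lay above all 3 controls for 19 subunits (13.4% of all rows) and below them for 0 (11.4%). Of the 9298 rows within the subunits' range of mean level, 1882 separated upwards and 1534 downwards. Of the same rows, 348 were called higher and 353 lower. Without siELOVL5 replicate 3, 4 accessory subunits of complex I were called higher, NDUFA1, NDUFA3, NDUFB6 and NDUFV3, with limma adjusted p from 0.0153 to 0.0427, where 4.74% of all rows were called higher. NDUFA1, NDUFA3 and NDUFV3 are named after their values were seen. Without double-knockdown replicate 3 the median was 0.08, with 36 subunits above control.

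The 3 comparisons share the control libraries, so the knockdowns were also compared with each other. siELOVL5 against siELOVL2 gave 51 of 55 subunits below and 4 above, with a median of -0.18 (-0.02 over all rows, of which 46.5% lay above). NDUFAB1 and NDUFA2 were called lower and 0 subunits higher, while 3.01% of all rows were called, 1.56% lower and 1.46% higher. With a replicate block, 4 subunits were called lower. Without adjustment, 23 subunits had p under 0.05, all lower. Of all 18648 rows, 1790 did so downwards and 17.2% in either direction. The libraries separated downwards for 26 subunits (11.7% of all rows) and upwards for 0 (8.36%). Of the 9298 rows within the subunits' range of mean level, 1587 separated downwards and 1056 upwards. Without siELOVL5 replicate 3 the median was -0.12 and 48 subunits lay below. The double knockdown against siELOVL5 gave 51 above and 4 below, with a median of 0.18 (0.02 over all rows, of which 52.7% lay above). There 0 subunits were called by limma (2.77% of all rows, 1.36% higher and 1.41% lower), and with a replicate block 4 were called higher. Without adjustment, 23 had p under 0.05, all higher. Of all 18648 rows, 1833 did so upwards and 17.4% either way. The libraries separated upwards for 28 subunits (11.4% of all rows) and downwards for 0 (7.43%). Of the 9298 rows within the subunits' range of mean level, 1541 separated upwards and 901 downwards. Both of these comparisons contain the siELOVL5 libraries. The double knockdown against siELOVL2 gave 25 above and 30 below, with a median of -0.01, where 49.9% of all rows lay above. By limma 0 subunits were called (0.059% of all rows), 1 had an unadjusted p under 0.05 (3.6% of all rows), and the libraries separated upwards for 4 (4.53%) and downwards for 0 (4.33%). The interaction, the double change minus both single changes, had a median of 0.09 over the subunits (0.01 over all rows) and 0 calls by limma (0% of all rows), with 3 subunits at an unadjusted p under 0.05 (2.8% of all rows), and 44 of 55 lay above 0, where 51.4% of all rows did. The median was 0.12 for the double knockdown against siELOVL5 and 0.03 for the interaction when siELOVL5 replicate 3 was left out.

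**Figure D2:**
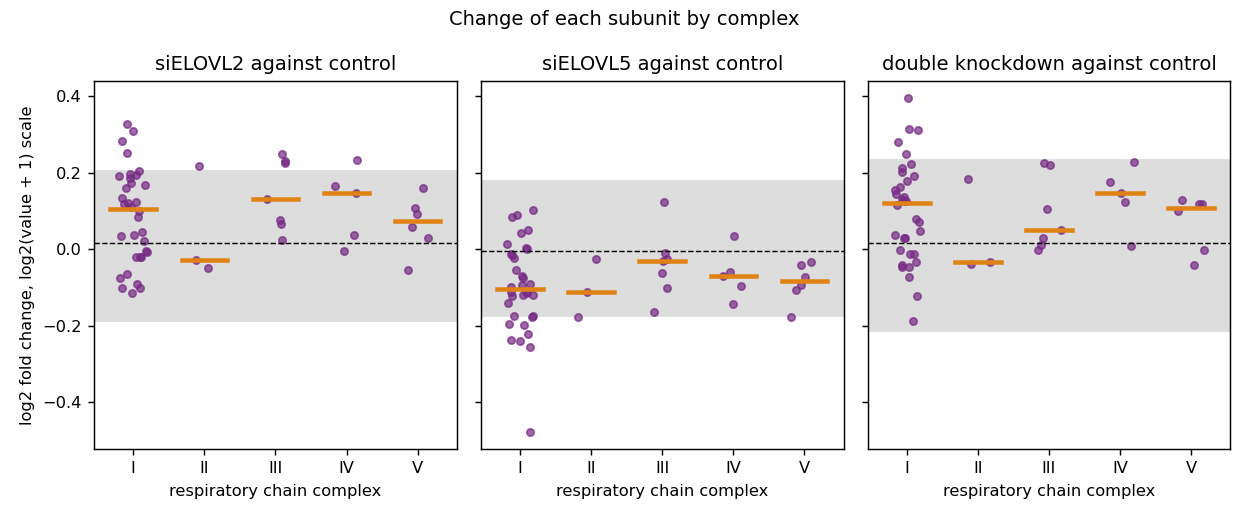
Log2 fold change of each subunit (points) by complex for each knockdown against control; orange bars are medians over the subunits of a complex, the dashed line is the median of all tested rows and the grey band holds their middle 50%. The medians of complexes I, III, IV and V are above the dashed line with siELOVL2 and in the double knockdown and below it with siELOVL5, and complex II, with 3 subunits, is below it in all 3 panels. Without siELOVL5 replicate 3, which is included here, the siELOVL5 medians of complexes III and IV were 0.02 and 0.01.

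Complex I medians were 0.11 with siELOVL2, -0.10 with siELOVL5 and 0.12 in the double knockdown, over 34 subunits. Without siELOVL5 replicate 3 the siELOVL5 median was -0.06, with 12 above control in place of 8. The 6 core subunits (NDUFS1, NDUFS3, NDUFS7, NDUFS8, NDUFV1 and NDUFV2), which include those that carry the flavin and iron-sulfur clusters, had medians of 0.11, -0.05 and 0.08. The 28 accessory subunits, which surround the core and stabilise it, had medians of 0.11, -0.11 and 0.12. The core and accessory sets were not tested against each other.

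NDUFAB1, the mitochondrial acyl carrier protein, is an accessory subunit of complex I and carries the growing chain in mitochondrial fatty acid synthesis. NDUFAB1 read 380.3, 340.3 and 391 in the controls, 358, 409.7 and 374 in the siELOVL2 libraries, 251, 278 and 268 in the siELOVL5 libraries and 338, 321 and 363 in the double knockdown. The 3 siELOVL5 libraries were the lowest of the 12 and overlapped with no other group. Group means were 371 ± 26.9 in controls, 381 ± 26.3 with siELOVL2, 266 ± 13.8 with siELOVL5 and 341 ± 21.3 in the double knockdown (SD, n = 3 each). It fell with siELOVL5 against siELOVL2 by 0.52 on the log2 scale (SE 0.09, 95% interval -0.71 to -0.32, limma adjusted p = 0.0103). Against control the change was -0.48 (95% interval -0.67 to -0.28, limma adjusted p = 0.0770), and the double knockdown lay 0.36 above siELOVL5 (limma adjusted p = 0.0573). The first of these passed the threshold with library weights (limma adjusted p = 0.0338) and the second with a filter of at least 10 (0.0429). Both passed it with a replicate block (limma adjusted p = 0.0444 and 0.0318). The call against siELOVL2 was lost without siELOVL2 replicate 2 (limma adjusted p = 0.0667) and when the 2 groups were fitted alone (0.0900). siELOVL5 replicate 3, at 268, lay between the other siELOVL5 libraries. The gene lies at chr16:23581002-23596356 on the minus strand, and no exon of another GENCODE 29 gene overlaps its exons.

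NDUFA2 is an accessory subunit of the peripheral arm of complex I. NDUFA2 read 156, 147 and 157 in the controls, 172, 176 and 171 in the siELOVL2 libraries, 129.9, 139 and 122 in the siELOVL5 libraries and 161, 186 and 167 in the double knockdown. All siELOVL5 libraries were below all others, and all siELOVL2 and double-knockdown libraries were above all controls. It fell with siELOVL5 against siELOVL2 by 0.41 (SE 0.10, 95% interval -0.63 to -0.19, limma adjusted p = 0.0462). Against control the changes were 0.17, -0.24 and 0.16 with siELOVL2, siELOVL5 and both (limma adjusted p = 0.486, 0.493 and 0.446). The call was lost on leaving out any 1 control, siELOVL2 or siELOVL5 library, or double-knockdown replicate 1 or 2 (limma adjusted p from 0.0581 to 0.165). The same happened with median-ratio scaling (0.0592), with no intensity trend (0.0569) and when the 2 groups were fitted alone (0.164). The call was kept without double-knockdown replicate 3. Its exons overlap those of IK and TMCO6 on the opposite strand, and whether the counting used strand is not given in the sources used here.

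NDUFB6 and NDUFA1, accessory subunits of the membrane arm, and NDUFA3, another accessory subunit, had the 3 largest changes of all subunits in the double knockdown. NDUFB6 read 277, 311 and 312 in the controls, 367, 390.0 and 372 in the siELOVL2 libraries, 327, 323 and 264 in the siELOVL5 libraries and 368, 374 and 377 in the double knockdown. The siELOVL2 and double-knockdown libraries all exceeded every control and every siELOVL5 library. Its changes were 0.33, 0.02 and 0.32 for siELOVL2, siELOVL5 and both (limma adjusted p = 0.124, 0.981 and 0.0849). NDUFA1 read 259.5, 251 and 268 in the controls, 258, 277 and 264 in the siELOVL2 libraries, 247, 246 and 275 in the siELOVL5 libraries and 336, 309 and 323 in the double knockdown. Here only the double-knockdown libraries stood above the rest, and the other groups overlapped. NDUFA3 averaged 125 ± 3.95 in controls, 155 ± 7.04 with siELOVL2, 126 ± 20.5 with siELOVL5 and 165 ± 5.91 in the double knockdown (SD, n = 3 each). Its double-knockdown change of 0.40 had a 95% interval of 0.13 to 0.66 and a limma adjusted p of 0.0868.

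**Figure D3:**
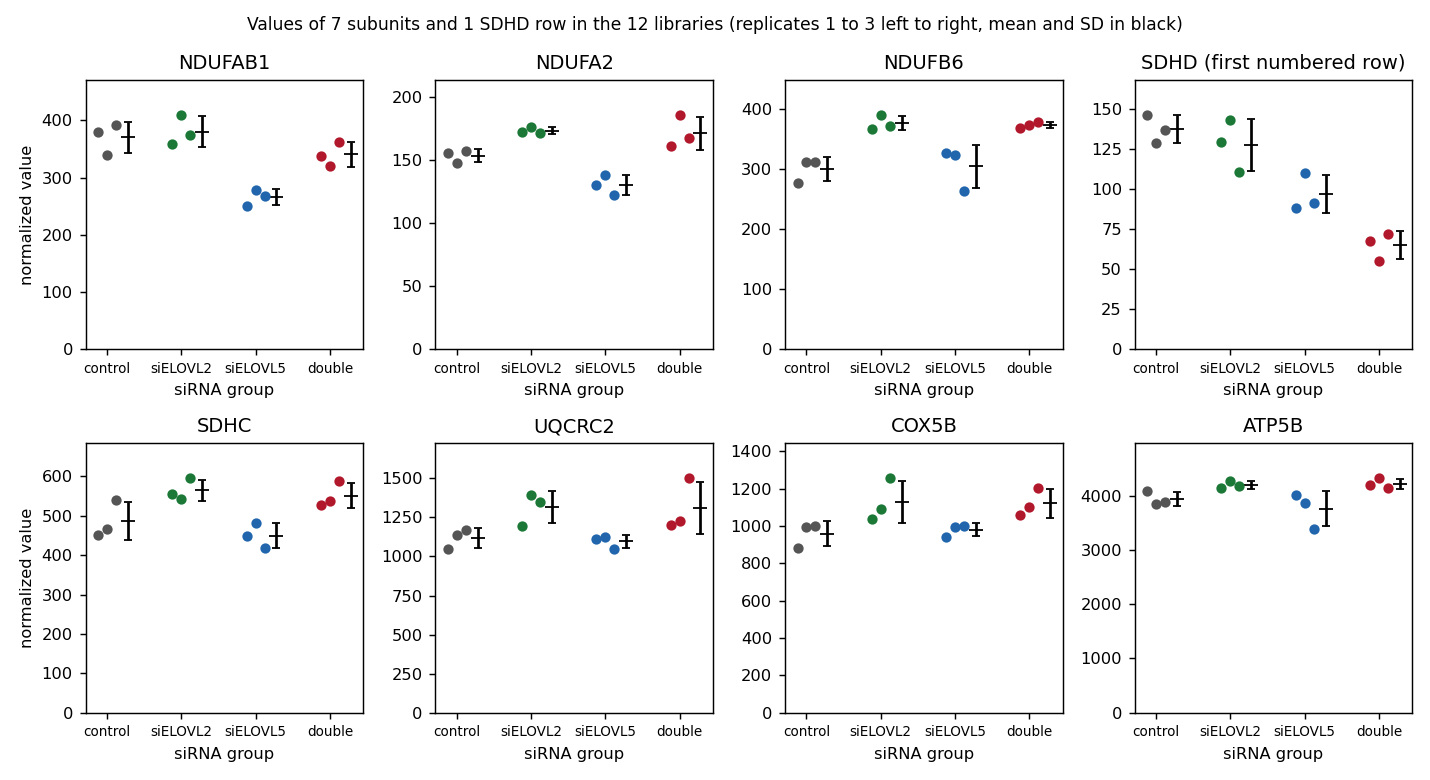
Normalized values of 7 subunits and the first numbered SDHD row in each library (points, replicates 1 to 3 from left to right) with group mean and SD (black), on linear axes from 0. NDUFAB1 and NDUFA2 are lowest in the siELOVL5 libraries, NDUFB6 is highest in the siELOVL2 and double-knockdown libraries, and the SDHD row is lowest in the double knockdown.

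Complex II oxidises succinate and also belongs to the tricarboxylic acid cycle. Its 3 subunits with a row of their name had medians of -0.03, -0.11 and -0.03 for siELOVL2, siELOVL5 and both, and 0 were called. The siELOVL5 median was -0.06 without siELOVL5 replicate 3. SDHA is the flavoprotein that binds succinate. SDHA read 1549, 1582 and 1626 in the controls, 1406, 1623 and 1645 in the siELOVL2 libraries, 1366, 1476 and 1365 in the siELOVL5 libraries and 1376, 1424 and 1898 in the double knockdown. The groups overlapped except that the siELOVL5 libraries lay below the controls, and double-knockdown replicate 3 was the highest library. Rows for SDHA pseudogenes held 10.3% of the SDHA level, so reads could be shared with them. SDHB holds the iron-sulfur clusters. SDHB read 376, 327 and 351 in the controls, 345, 326 and 347 in the siELOVL2 libraries, 367, 341 and 329 in the siELOVL5 libraries and 325, 360.0 and 341 in the double knockdown. All groups overlapped, with changes of -0.05, -0.02 and -0.04 and 95% intervals of -0.23 to 0.13 (siELOVL2), -0.21 to 0.16 (siELOVL5) and -0.22 to 0.14 (both). SDHC is a membrane anchor. SDHC read 452, 467 and 540.4 in the controls, 555, 543 and 595 in the siELOVL2 libraries, 449, 482 and 418 in the siELOVL5 libraries and 527, 539 and 588 in the double knockdown. The siELOVL2 libraries exceeded all controls, the double knockdown overlapped with control replicate 3, and the changes were 0.22, -0.11 and 0.18 (limma adjusted p = 0.298, 0.731 and 0.301).

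SDHD, the other membrane anchor of complex II, stands in the table only as SDHD_1 and SDHD_2, and which locus each row counts is not given in the sources used here. SDHD_1 read 147, 129 and 137 in the controls, 129, 143 and 111 in the siELOVL2 libraries, 88.7, 110.4 and 91.6 in the siELOVL5 libraries and 67.8, 55.4 and 72.2 in the double knockdown. The double-knockdown libraries were the lowest, the siELOVL5 libraries came next, and neither overlapped with another group. The siELOVL2 libraries overlapped with the controls. SDHD_1 fell in the double knockdown against control by 1.07 on the log2 scale (SE 0.15, 95% interval -1.40 to -0.75, limma adjusted p = 0.00189), from 138 ± 8.88 to 65.1 ± 8.69 (SD, n = 3 each). That call held on leaving out any 1 of the 12 libraries, with limma adjusted p from 9.01e-04 to 0.0145. With siELOVL5 alone the change was -0.51 (limma adjusted p = 0.306) and with siELOVL2 alone -0.11 (limma adjusted p = 0.812). Against siELOVL2, SDHD_1 fell in the double knockdown by 0.96 (limma adjusted p = 0.0447), a call lost on leaving out any library other than siELOVL5 replicate 3, with limma adjusted p from 0.0564 to 0.372, and also lost with a pseudocount of 5 (0.0582) and when the 2 groups were fitted alone (0.348). The double change was -0.46 beyond the sum of the single changes, with a limma adjusted p of 0.996. SDHD_2 did not exceed 2.08 in any library. The SDHD gene at chr11:112086773-112120013 has exons that overlap those of TIMM8B on the opposite strand and of AP002884.3 on the same strand, and TIMM8B differed by 0.11 between double knockdown and control (limma adjusted p = 0.721). The row is not among the 55 subunits counted above and was singled out after its values were seen.

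NDUFB8, a membrane-arm subunit, and NDUFA7, an accessory subunit, also appear only as numbered rows. NDUFB8_1 read 145, 137 and 159 in the controls, 167, 141 and 156 in the siELOVL2 libraries, 136, 122 and 128 in the siELOVL5 libraries and 172, 141 and 162 in the double knockdown. The siELOVL5 libraries lay below all others, and the other groups overlapped. NDUFB8_2 ranged from 2.83 to 24.4, NDUFA7_1 from 1.00 to 27.9 and NDUFA7_2 from 17.3 to 42.4 over the 12 libraries, and each knockdown overlapped with control except NDUFB8_2 with siELOVL2, which lay above. None of the 4 rows was called in any of the 3 comparisons with control.

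Complex III passes electrons from ubiquinol to cytochrome c. Its 7 subunits had medians of 0.13, -0.03 and 0.05 for siELOVL2, siELOVL5 and both, all 7 lay above control with siELOVL2, and 0 were called. The direction with siELOVL5 turned without siELOVL5 replicate 3, where the median was 0.02 and 5 of 7 lay above control. UQCRC2 is a core protein. UQCRC2 read 1048, 1138 and 1172 in the controls, 1198, 1396 and 1349 in the siELOVL2 libraries, 1113, 1125 and 1050.4 in the siELOVL5 libraries and 1204, 1226 and 1501 in the double knockdown. The siELOVL2 and double-knockdown libraries exceeded every control and every siELOVL5 library. Its changes were 0.23, -0.03 and 0.22 (limma adjusted p = 0.289, 0.948 and 0.222). UQCRB read 818, 809 and 921 in the controls, 936, 951 and 1148 in the siELOVL2 libraries, 900.2, 757 and 724 in the siELOVL5 libraries and 969, 1008 and 998 in the double knockdown. UQCRB binds near the ubiquinone site, and its siELOVL2 and double-knockdown libraries again exceeded all others, with changes of 0.25, -0.10 and 0.23 (limma adjusted p = 0.288, 0.786 and 0.249). UQCRQ read 556, 559.7 and 599 in the controls, 672, 643 and 689 in the siELOVL2 libraries, 574, 583 and 490.2 in the siELOVL5 libraries and 572, 593 and 686 in the double knockdown. UQCRQ, a small subunit, was above all controls in the siELOVL2 libraries only, with changes of 0.23, -0.06 and 0.11 (limma adjusted p = 0.285, 0.871 and 0.594).

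Complex IV, cytochrome c oxidase, had medians of 0.15, -0.07 and 0.15 over 5 subunits, and 0 were called in the main fit. Here too the direction with siELOVL5 turned without siELOVL5 replicate 3, to a median of 0.01 with 3 of 5 above control. All 5 lay below siELOVL2 in the siELOVL5 libraries on average. COX5B read 880.4, 993 and 998 in the controls, 1039, 1088 and 1255 in the siELOVL2 libraries, 938, 997 and 1002 in the siELOVL5 libraries and 1057, 1100.3 and 1204 in the double knockdown. COX5B, a zinc-binding subunit of the matrix side, was above every control in the siELOVL2 and double-knockdown libraries, while siELOVL5 overlapped with control. Its changes were 0.23, 0.03 and 0.23 (limma adjusted p = 0.237, 0.934 and 0.174). With a replicate block, COX5B was called higher in the double knockdown (limma adjusted p = 0.0373). COX6C read 503, 482 and 539 in the controls, 539, 547 and 627 in the siELOVL2 libraries, 468, 480.0 and 477 in the siELOVL5 libraries and 577, 552 and 593 in the double knockdown. COX6C, a small membrane subunit, was below all controls in the 3 siELOVL5 libraries and above all controls in the double knockdown, with changes of 0.17, -0.10 and 0.18 (limma adjusted p = 0.387, 0.733 and 0.258). COX7C read 841, 950.1 and 979.8 in the controls, 982, 958 and 1132 in the siELOVL2 libraries, 929, 949 and 785 in the siELOVL5 libraries and 994, 999.8 and 1069.7 in the double knockdown. COX7C, also a small membrane subunit, was above all controls only in the double knockdown, and its changes were 0.15, -0.06 and 0.15 (limma adjusted p = 0.541, 0.883 and 0.450).

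Complex V had medians of 0.08, -0.08 and 0.11 over 6 subunits, all 6 lay below control with siELOVL5, and 0 were called. Without siELOVL5 replicate 3 the siELOVL5 median was -0.03 and 5 of 6 lay below. ATP5A1 and ATP5B are the alpha and beta subunits of the catalytic head. ATP5A1 read 1786, 1673 and 1767 in the controls, 1754, 1891 and 1990.2 in the siELOVL2 libraries, 1680.4, 1749 and 1244 in the siELOVL5 libraries and 1816, 1902 and 1959.8 in the double knockdown. The siELOVL5 mean rested on replicate 3, whose value was the lowest of the 12, while replicates 1 and 2 were within the range of the controls. ATP5B read 4087, 3847 and 3875 in the controls, 4136, 4275 and 4182 in the siELOVL2 libraries, 4008, 3863 and 3393 in the siELOVL5 libraries and 4190.0, 4319 and 4136 in the double knockdown. All double-knockdown and siELOVL2 libraries exceeded all controls, and replicate 3 of siELOVL5 was again the lowest. The changes of ATP5A1 were 0.11, -0.18 and 0.12 and those of ATP5B 0.09, -0.07 and 0.10 (limma adjusted p between 0.513 and 0.789). ATP5D is the delta subunit of the central stalk. ATP5D read 314, 304 and 344 in the controls, 350.0, 376 and 348 in the siELOVL2 libraries, 314, 327 and 299 in the siELOVL5 libraries and 347, 344 and 359 in the double knockdown. Its siELOVL2 and double-knockdown libraries exceeded all controls, with changes of 0.16, -0.03 and 0.13 (limma adjusted p = 0.417, 0.933 and 0.432).

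**Figure D4:**
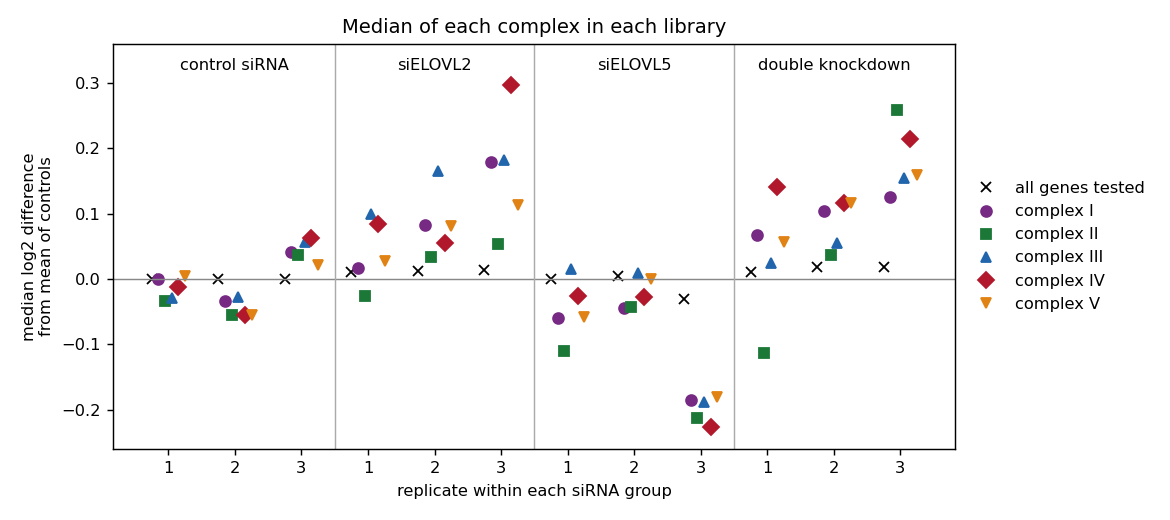
Median over the subunits of each complex (symbols) and over all tested rows (crosses) of the log2 difference from the control mean in each of the 12 libraries. The 5 complexes lie between -0.23 and -0.18 in siELOVL5 replicate 3, and in the siELOVL2 and double-knockdown libraries complexes I, III, IV and V are above 0.

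The complexes were not tested against each other, and their subunits overlapped in range in every comparison. The median SE of a subunit's change was 0.10, and in the 3 comparisons with control the 95% intervals of 50, 52 and 51 of the 55 subunits lay within 0.5 of 0 on the log2 scale. All 55 lay within 1. Among all 18648 rows, 3543, 3154 and 4094 had a change over 0.5 in size, and 0 subunits did so. Those rows were not limited to the subunits' range of mean level. The counts therefore do not show that the subunits were steadier than other rows at their level.

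Genes around the chain were summarised in the same way. The 20 other nuclear-encoded subunits had medians of 0.07, -0.14 and 0.09 for siELOVL2, siELOVL5 and both, with 19, 0 and 17 above control and 0 called against control. Of these 20, 1 was called lower in siELOVL5 against siELOVL2, where 1.56% of all rows were. Likewise 1 was called higher in the double knockdown against siELOVL5, where 1.36% of all rows were. The 13 mitochondrially encoded subunits had medians of 0.00, -0.17 and 0.07 with 0 called. Their siELOVL5 libraries went in opposite directions, with medians of -0.10, 0.18 and -0.59 in replicates 1, 2 and 3. Complex I assembly factors (18 genes) had medians of 0.12, -0.05 and 0.11, assembly factors of complexes II to V (34) 0.15, -0.04 and 0.09, electron carriers and coenzyme Q synthesis (18) 0.08, -0.04 and 0.10, and the tricarboxylic acid cycle (23) 0.01, -0.07 and 0.02. None of those 4 lists had a called gene against control. In the double knockdown against siELOVL5, 1 complex I assembly factor was called higher. Among 21 regulators of mitochondrial biogenesis 1 was called in the double knockdown, near the 4.42% of all rows. HIF1A, the oxygen-responsive transcription factor, fell in the double knockdown by 0.39 (limma adjusted p = 0.00772). HIF1A read 1980.2, 2084 and 2119 in the controls, 1826, 1849 and 1986 in the siELOVL2 libraries, 1774, 1728 and 1671 in the siELOVL5 libraries and 1502, 1530.3 and 1701 in the double knockdown. The double-knockdown libraries and the siELOVL5 libraries all lay below all controls. The other 20 genes were not called. In siELOVL5 replicate 3, MYC read 2300 and EPAS1 3367, each the highest of the 12 libraries. These 2 genes are named after their values were seen.

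Of 74 mitochondrial ribosomal protein genes, which build the ribosome that translates the mitochondrially encoded subunits, 1 fell with siELOVL2 and 3 in the double knockdown, where 1.36% and 4.42% of all rows were called either way, so these counts are near the background. MRPL10 read 302, 317 and 353 in the controls, 245, 239 and 233 in the siELOVL2 libraries, 354, 397 and 367 in the siELOVL5 libraries and 224, 255 and 254 in the double knockdown. MRPL10 fell by 0.43 with siELOVL2 (limma adjusted p = 0.0379) and by 0.40 in the double knockdown (limma adjusted p = 0.0279), below every control both times. MRPL33 fell in the double knockdown by 0.52 (limma adjusted p = 0.0299) and MRPS6 by 0.94 (limma adjusted p = 0.0421). The calls depended on single libraries. MRPL10 with siELOVL2 lost its call without any 1 control, any 1 siELOVL2 library or double-knockdown replicate 2 (limma adjusted p from 0.0593 to 0.144), and in the double knockdown without any 1 control or double-knockdown replicate 1 or 2 (0.0533 to 0.112). MRPL33 lost its call without control replicate 1 or 2 or any 1 double-knockdown library (limma adjusted p from 0.0587 to 0.132). MRPS6 lost its call without any 1 control, with replicate 2 or 3 of siELOVL2 left out, with replicate 2 of siELOVL5 left out, and without double-knockdown replicate 1 or 2 (limma adjusted p from 0.0526 to 0.143). The medians of the 74 genes were 0.03, -0.08 and 0.02. Among the siELOVL5 libraries, the median difference from control was 0.01, -0.01 and -0.24 in replicates 1, 2 and 3.

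Several subunits have paralogues used in other tissues or at low oxygen. COX4I2, COX7B2 and COX8C were at 0 in all 12 libraries. COX6A2 was above 0 in 1 library, at 1.67. NDUFA4L2, a paralogue of the complex IV subunit NDUFA4 and a known hypoxia target, ranged from 0 to 5.33, COX7A1, the muscle form, from 1.00 to 5.58, and COX6B2, the testis form, from 3.67 to 10.3. Values this low lie within a few reads, and a row with no read could still hold up to 0.917, so no direction was read. The common forms NDUFA4, COX6A1 and COX7A2 differed from control by 0.09, 0.01 and 0.13 with siELOVL2 and by -0.13, -0.11 and -0.21 with siELOVL5, and COX7A2L, which binds respiratory supercomplexes, by 0.08 and 0.10. None of them was called in these 2 comparisons (limma adjusted p from 0.550 to 0.994).

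Of the 58 listed genes, 48 had a promoter in the RefSeq table. Both strands of the 250 bases were searched, a gene counted once however many matches it held, and matches to different motifs were allowed to overlap. The NRF1 motif (GCGCA, any base, GCGC) was in 11 of 48 (22.9%) and in 6.2% of the promoters of 27305 genes. The ETS motif, CCGGAAG, was in 11 (22.9%) against 10.2%, the SP1 motif, GGGCGG, in 31 (64.6%) against 46.2%, and the YY1 motif, AAGATGGCG, in 0 against 0.784%. NRF1 and ETS factors are known activators of respiratory chain genes. Among the 45 subunits with both a promoter and a row, the 10 with an NRF1 match had median changes of 0.06, -0.08 and 0.03 for siELOVL2, siELOVL5 and both, and the 35 without had 0.11, -0.09 and 0.12. No test was made.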

How the data were processed

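RNA of A498 cells had been sequenced as paired-end 36-base reads in 12 libraries, per the labels. The authors deposited a normalized signal, with a single value for each row in each library. Columns share an identical set of values, all of them multiples of a 12th, as results from quantile normalization across 12 libraries, so differences in total RNA between libraries are removed. Which aligner, counter, annotation and build were used is not given in the sources used here. Depth was estimated from the order of tied low values. Subunits were matched by exact symbol.

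limma 3.58.1 (R 4.3.3) was run on log2(value + 1), with an intensity trend, group means of all 4 groups and 8 residual degrees of freedom. Rows with at least 1 in at least 3 libraries were tested (18648), and p-values were adjusted over all of them within each of 7 comparisons, with a threshold of 0.05. The fit was tested on simulated data. The subunits, lists and tests were chosen with earlier results of these data known. Named were ELOVL2 and ELOVL5, called subunits (up to 6 each way against control and up to 3 each way otherwise), the 3 subunits per complex with the smallest F-test p over the knockdowns, up to 3 called genes each way per other list, and all isoforms. Alternatives were the pseudocount (0.5 and 5), the filter (none, and at least 10), median-ratio scaling, no intensity trend, library weights, a replicate block, the compared groups alone, and each library left out. Gene models and exon overlaps came from GENCODE 29, and promoters from RefSeq (GRCh38.p14).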

Additional observations from a re-analysis of the deposited data

Results flagged for a closer look

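In 2 subunits the siELOVL5 and siELOVL2 effects differed by a test of the difference itself. NDUFAB1 was -0.52 in siELOVL5 against siELOVL2 (limma adjusted p = 0.0103), where its difference from control was 0.04 with siELOVL2 and -0.48 with siELOVL5. NDUFA2 was -0.41 (limma adjusted p = 0.0462), where its difference from control was 0.17 with siELOVL2 and -0.24 with siELOVL5. Both calls were lost when the 2 groups were fitted alone (limma adjusted p = 0.0900 for NDUFAB1 and 0.164 for NDUFA2). Groups of 3 libraries were not tested for an outlying value.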

How the results depend on the processing

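No called subunit turned direction under any alternative run. Some medians without a test did: with siELOVL5 against control those of complexes III and IV became 0.02 and 0.01 without siELOVL5 replicate 3, and that of all subunits in the double knockdown against siELOVL2 lay between -0.03 and 0.03 with 1 library left out. For the double knockdown against control, subunits called higher (0) became 1 with a filter of at least 10, 4 with library weights and 2 with the replicate block, and 0 to 4 with 1 library left out. Against siELOVL5 they (0) became 1 with no filter, 3 with a filter of at least 10, 2 with library weights and 4 with the replicate block, and 0 to 1 with 1 library left out. For siELOVL2 against control they (0) became 3 with library weights and 0 to 1 with 1 library left out. For siELOVL5 against control, those called lower (0) became 1 with library weights and 1 with the replicate block. For siELOVL5 against siELOVL2, those called lower (2) became 1 with median-ratio scaling, 1 with no intensity trend, 8 with library weights, 4 with the replicate block, 0 with the compared groups alone and 0 to 2 with 1 library left out. The interaction median (0.09) became 0.0233 with library weights and lay between 0.03 and 0.13 with 1 library left out. The cause of these moves was not tested, except that fewer rows are tested under a filter and fewer libraries when some are left out. With the replicate block, NDUFAB1 was called with siELOVL5 against control (limma adjusted p = 0.0444) and in the double knockdown against siELOVL5 (0.0318), and SDHD_1 was no longer called in the double knockdown against siELOVL2 (0.0564). In that fit NDUFA1 and COX5B were called higher in the double knockdown against control (limma adjusted p = 0.03194 and 0.03725). The main fit did not take replicate numbers to pair the libraries. Same-numbered libraries had residual correlations from -0.001 to 0.212 over 18 pairs and other-numbered ones from -0.215 to 0.064 over 36, and 10 of 12 libraries correlated best with their own number in every group. The 0 calls with siELOVL5 and in the double knockdown against control therefore depend on leaving out the block. Precision is limited by 3 libraries per group and by depths from 6.7 to 10.7 M reads.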
